A study of Mus musculus with 7 samples.

Results

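The 36 genes described here make or regulate the surface epithelia of the eye, the stratified and glandular layers of the cornea, conjunctiva and lid. They were chosen by name, with earlier results of these data known. They are 12 keratins, 7 desmosome genes, 6 genes of the envelope, of differentiation and of surface mucin, 3 adhesion and claudin genes, 6 regulators and 2 aquaporins. All 36 were measured, among 19938 genes in all, each by its brightest probe set annotated to exactly 1 symbol. They were read in RNA of the retinal pigment epithelium (RPE) of C57Bl/6J mice, from 4 wild-type samples and 3 samples of the mutant Mfrp rd6, with 1 array per sample. The age field puts the wild type at 8 weeks and the 3 mutant samples at 12 weeks, by which age and genotype cannot be told apart. The growth protocol gives 12 weeks for Mfrp rd6 replicate 1 alone. Per the labels, cornea and lens were cut away and the eyecups were shaken in a preserving solution until the RPE came off. The mutation is carried by the whole animal, and the labels do not say how many eyes or animals made up a sample, and the spread behind the p-values is that between samples, possibly a technical one.

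Keratins are the filament proteins of epithelial cells and work in pairs of a type I and a type II chain. Krt8 and Krt18 are the pair of single-layered epithelia, the RPE among them, Krt5 and Krt14 the pair of the basal layer of stratified epithelia, and Krt4 and Krt13 the pair above it in moist epithelia such as the conjunctiva. Krt12 is made by the corneal epithelium. Desmosomes rivet neighbouring cells together through cadherins (desmogleins and desmocollins), which plakoglobin, plakophilins and desmoplakin tie to the keratin filaments. In the RefSeq gene order, Krt13 and Krt15 are next to each other on chromosome 11, as are Krt14 and Krt16. Krt6a and Krt5 are next to each other on chromosome 15, and so are Krt8 and Krt18.

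The stretches before the starts of 3 keratin genes are shown. Krt5 and Krt14 are the basal pair, with ranges of 0.07 and 0.27 over the 7 arrays, while Krt12, the corneal keratin, differed most between arrays among the 36 genes. Each line is the 250 bases before the start in RefSeq (GRCm38.p6), 5′ to 3′ on the gene's own strand, which is the minus strand for all 3: chr15:101712906-101713155 for Krt5, chr11:100206031-100206280 for Krt14 and chr11:99422260-99422509 for Krt12. Capitals mark matches, on either strand, to TATAAA (the TATA box), CACCTG (an E-box), GGGTGTG (a motif of Krüppel-like factors) or AACCGGTT (the grainyhead motif).
Krt5: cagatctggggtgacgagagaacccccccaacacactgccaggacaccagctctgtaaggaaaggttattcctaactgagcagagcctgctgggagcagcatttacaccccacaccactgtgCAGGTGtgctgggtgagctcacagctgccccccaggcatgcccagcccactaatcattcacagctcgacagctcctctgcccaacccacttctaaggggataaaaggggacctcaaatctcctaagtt
Krt14: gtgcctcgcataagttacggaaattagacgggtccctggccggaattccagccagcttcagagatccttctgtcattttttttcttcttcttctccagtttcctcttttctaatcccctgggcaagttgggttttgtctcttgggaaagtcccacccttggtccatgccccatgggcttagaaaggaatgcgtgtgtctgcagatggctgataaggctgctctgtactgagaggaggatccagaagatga
Krt12: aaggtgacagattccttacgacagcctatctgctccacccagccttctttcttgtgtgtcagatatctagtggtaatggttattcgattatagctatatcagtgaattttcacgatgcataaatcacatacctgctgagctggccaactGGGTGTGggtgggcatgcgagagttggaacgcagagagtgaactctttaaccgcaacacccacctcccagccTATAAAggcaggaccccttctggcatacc
The Krt5 stretch held 1 E-box, read on the opposite strand as CAGGTG, and the Krt12 stretch held 1 TATA box and 1 Krüppel-like motif, whereas none of the 4 motifs was found in the Krt14 stretch. Of the 36 genes, 19 had a sequence in the RefSeq table, with 21 starts. The E-box lay before 11 of these 21 starts and before 17.2% of all 32851 starts in the table. The TATA box lay before 4 of 21 (12.4% of all), the Krüppel-like motif before 2 (6.93% of all) and the grainyhead motif before 0 (0.116% of all). A match describes the letters only.

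Surface epithelium transcripts were bright on all 7 RPE arrays. Values are log2 signals made with RMA, in which 1 unit is a 2-fold difference. The signal of a probe set also depends on its probes, so the levels of different genes compare only roughly. Of the 36 genes, 33 had a mean above 8.79, the upper quartile of all gene means, and 25 had a wild-type mean of at least 11, where the highest value of any probe set was 13.81. The 3 others, Krt12, Krt16 and Ivl, lay between the lower quartile (5.50) and the upper quartile. The range over the 7 arrays was under 0.5 in 33 genes, with a median of 0.30. It was 0.36 over all genes, 0.29 over those above the upper quartile and 0.25 over the 691 genes with a mean of at least 11, so the 36 genes varied about as much as other bright genes. The 3 genes that ranged more widely were Krt12, Krt16 and Aqp5. Of the 14 RPE markers, 12 also had a mean above the upper quartile. Rpe65, the isomerase of the visual cycle, read 12.81 to 12.92 in wild type and 12.48 to 12.80 in Mfrp rd6. Rlbp1, its retinaldehyde carrier, read 12.04 to 12.40 over the 7 arrays, and Best1 5.73 to 6.02, below the median of all gene means (7.12). Which cells the epithelial transcripts came from was not measured.

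**Figure D1:**
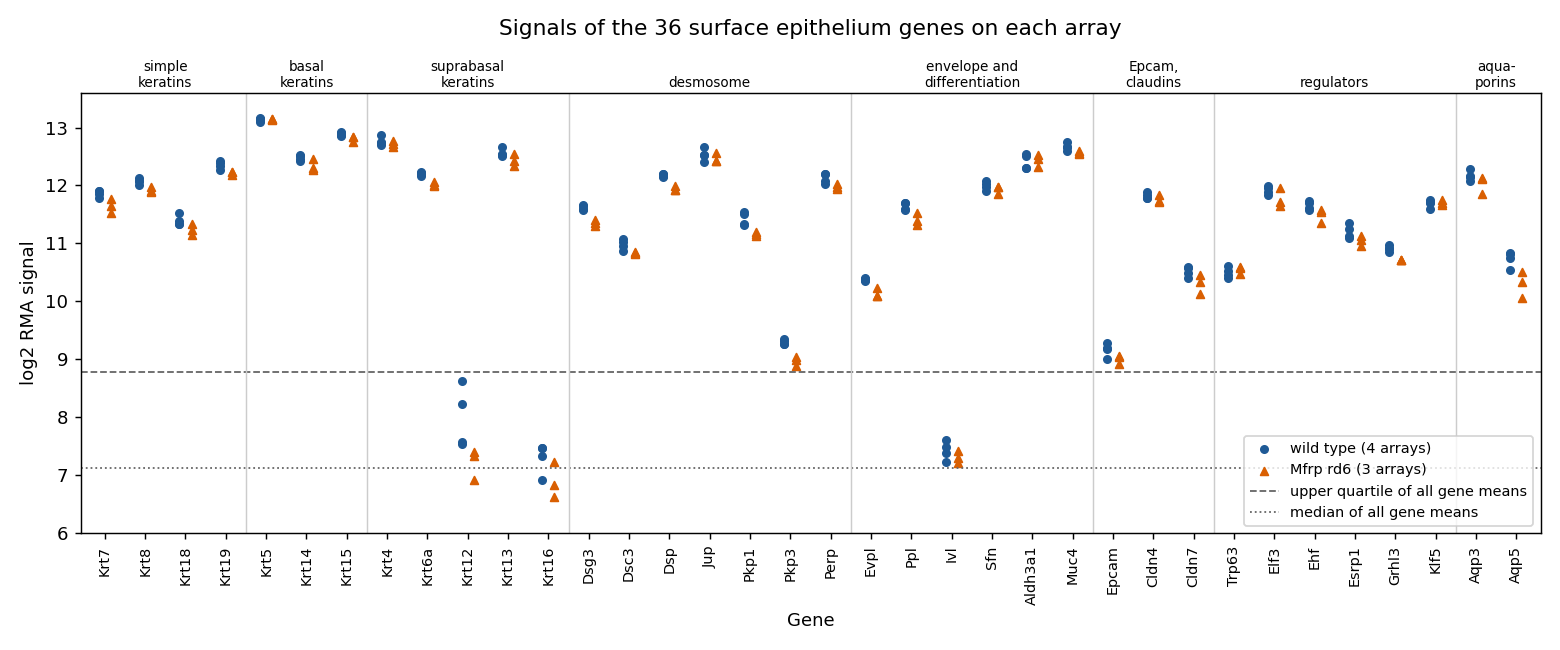
Log2 RMA signals (vertical axis) of the 36 genes (horizontal axis, by role) on the 4 wild-type arrays (circles) and the 3 Mfrp rd6 arrays (triangles), with the median and the upper quartile of all gene means as lines. Most genes form tight groups of points above the upper quartile, and Krt12, Krt16 and Ivl lie below it.

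Between the genotypes, most of these genes read slightly lower in Mfrp rd6, and 1 of 36 passed the test. Pkp3, a plakophilin of the desmosome, fell (limma, Benjamini-Hochberg adjusted p under 0.05 over all genes), and 0 genes rose. Among all genes, 0.813% fell and 1.34% rose. The difference was negative in 32 of 36 genes, against 56.5% of all genes and 66.0% of the 4985 genes above the upper quartile, and its median was -0.15 against -0.02 over all genes and -0.05 over those above the upper quartile. In 15 of the 36 (41.7%) every Mfrp rd6 array lay below every wild-type array, as in 9.82% of all genes and in 20.2% of those above the upper quartile. In 0 of 36 did every mutant array lie above, as in 5.52% of all genes. Without adjustment for multiple tests, limma gave p under 0.05 for 14 genes that were lower, against 9.37% of all genes and 16.9% of those above the upper quartile, and for 0 that were higher, against 5.98% of all genes. The counts given below for each role are parts of these and stand beside the same shares. The median difference stayed between -0.17 and -0.125 in all 17 alternative analyses, and without Mfrp rd6 replicate 1 it was -0.15. The 36 genes were chosen with earlier results of these data known, so these counts describe the list and test nothing. In bulk tissue, fewer cells of a type and less RNA per cell cannot be told apart.

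**Figure D2:**
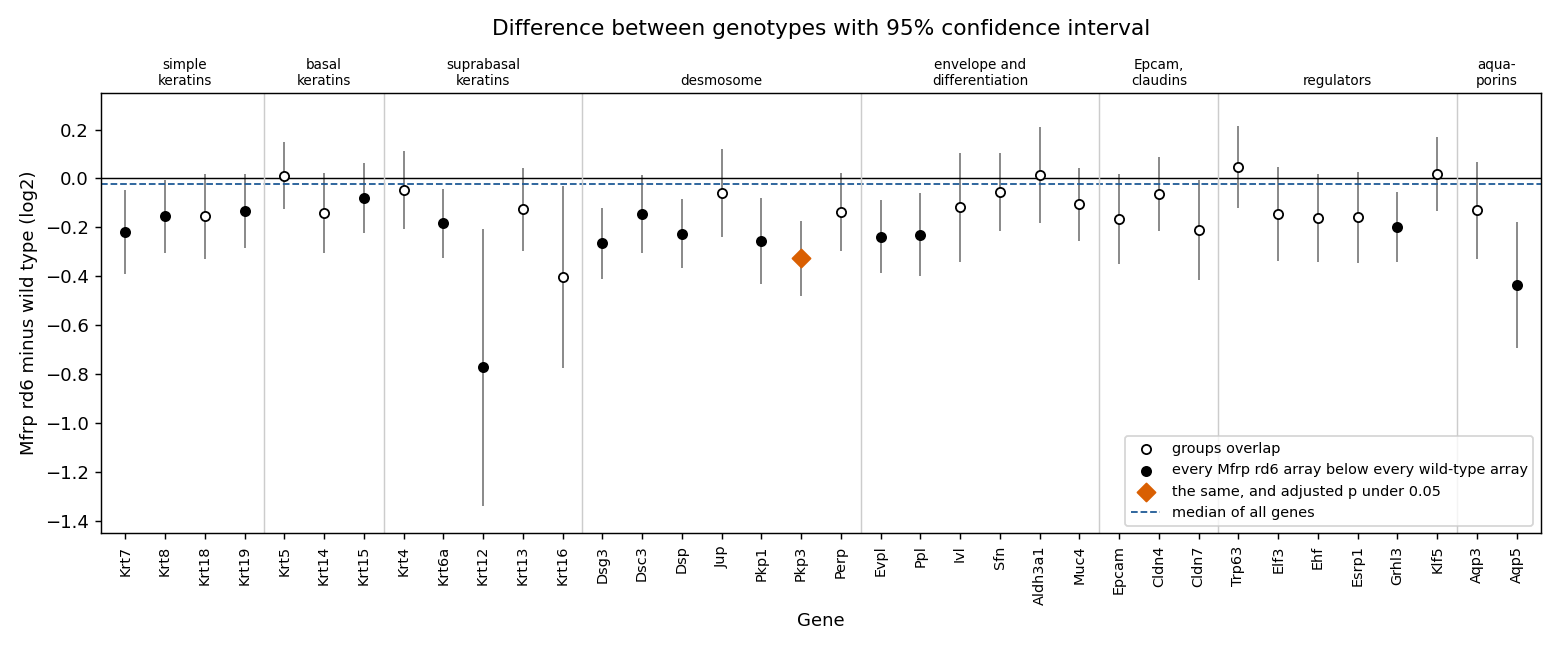
Difference between Mfrp rd6 and wild type (log2, vertical axis) for each gene (horizontal axis, by role) with its 95% confidence interval from limma. Filled points are the genes whose groups did not overlap, and the diamond is Pkp3, the gene past the threshold. Most points lie between 0 and -0.3, with Krt12 lowest at -0.77.

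Markers of other cells differed on the same arrays. The mean of the microglia and macrophage list was 7.17 to 7.34 on the wild-type arrays and 9.20 to 9.83 on the mutant arrays, and 9 of its 10 genes rose. The skeletal muscle mean was 6.81 to 8.21 and 8.25 to 9.19 (3 of 10 rose), and the endothelial mean 6.69 to 7.23 and 7.34 to 7.74 (2 of 7 rose). Of all genes, 1.34% rose and 0.813% fell. The stroma list, of collagens, proteoglycans and Pdgfra, had a mean of 6.81 to 6.99 and 6.51 to 6.71 (median difference -0.21). In 4 of its 7 genes every mutant array lay below every wild-type array, against 9.82% of all genes. The stroma gene Dcn, decorin, a proteoglycan of collagen fibrils, fell from 9.80, 10.17, 10.10 and 10.44 to 9.22, 8.97 and 9.42 (-0.92, limma adjusted p = 0.014). The RPE mean was 10.96 to 11.07 and 10.94 to 11.003, and 1 of its 14 genes fell, Lrat (-0.40, limma adjusted p = 0.0277). In 3 of the 14, Slc45a2 (-0.47), Lrat and Rpe65 (-0.22), every mutant array lay below every wild-type array, against 9.82% of all genes. In 2, Trpm1 (0.32) and Ttr (0.06), every mutant array lay above, against 5.52% of all genes. The mean of the 36 epithelial genes was 11.31 to 11.38 on the wild-type arrays and 11.14 to 11.20 on the mutant arrays. The rod mean was 6.85 to 8.19 and 6.67 to 7.15, highest on wild-type replicate 3. All 8 measured rod genes had a negative difference (median -0.53), against 56.5% of all genes. Of these rod genes 0 passed the threshold by limma, and the groups overlapped in each. The lens mean was highest on Mfrp rd6 replicate 2 (7.45, against 5.93 to 6.19 on the other arrays), though several lens genes did not peak there. None of these lists had a marker at 0, since the arrays give a value for every probe set. Their part in the epithelial differences was not tested. Without both Mfrp rd6 replicate 2 and wild-type replicate 3, the arrays with the highest lens and rod means, the median of the 36 genes was -0.15. With these fewer arrays every mutant array lay below every wild-type array in 21 of the 36 genes, in 15.3% of all genes and in 29.1% of those above the upper quartile. The microglia, muscle, endothelial and stroma means also separated the groups on the arrays that were left.

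**Figure D3:**
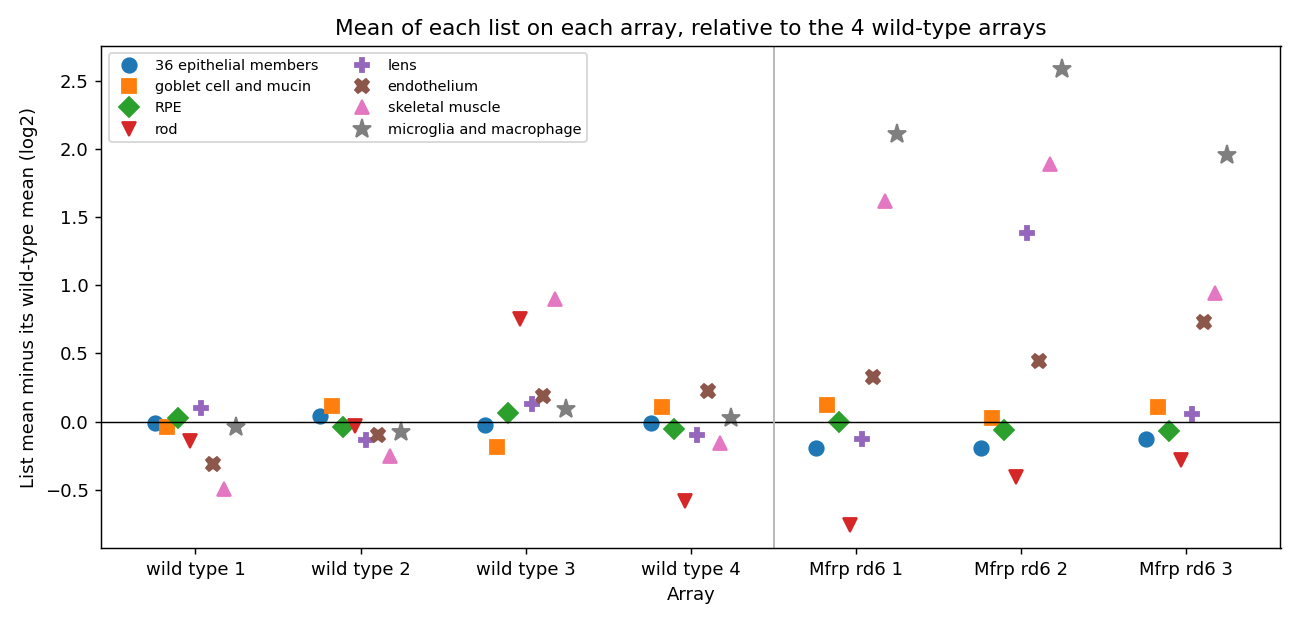
Mean of each list on each of the 7 arrays (horizontal axis), as its difference from the list's mean over the 4 wild-type arrays (log2, vertical axis). The 36 epithelial genes stay near 0 on the wild-type arrays and lie slightly below on the mutant arrays, where the microglia and macrophage, skeletal muscle and endothelial means are higher.

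The array that read lowest was a mutant one for 31 of the 36 genes. Mfrp rd6 replicate 2 was lowest in 16, replicate 1 in 13 and replicate 3 in 4, ties counted for each array. Relative to the wild-type mean of each gene, the median deviation was -0.17, -0.18 and -0.11 on Mfrp rd6 replicates 1, 2 and 3. It lay between -0.03 and 0.05 on the wild-type arrays, of which replicate 2 was the highest of all arrays in 20 genes. These ranks were not counted over all genes or over those above the upper quartile, so they are not shown to be particular to the 36. The mean of the genes above the upper quartile was also highest on wild-type replicate 2, and it was lowest on Mfrp rd6 replicate 3 (9.89). On wild-type replicate 1 that mean (9.91) was below those on Mfrp rd6 replicates 1 (9.94) and 2 (9.915).

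The 4 keratins of single-layered and glandular epithelia were bright and slightly lower in the mutant, with 0 of 4 past the threshold. By limma 2 were lower at an unadjusted p under 0.05, against 9.37% of all genes and 16.9% of those above the upper quartile. Krt8 read 12.01, 12.08, 12.13 and 12.08 in wild type and 11.90, 11.88 and 11.98 in Mfrp rd6. Its groups did not overlap, and the difference was -0.15 (95% confidence interval -0.30 to -0.01, limma adjusted p = 0.299). Krt18, the partner chain of Krt8, read 11.33, 11.39, 11.52 and 11.34 against 11.23, 11.34 and 11.15. Its groups touched at 11.34, and its difference was also -0.15 (adjusted p = 0.39 by limma). Krt7, a keratin of glandular and ductal epithelium, read 11.91, 11.91, 11.78 and 11.85 against 11.64, 11.53 and 11.76, with a narrow gap between the groups (-0.22, SE 0.08, limma adjusted p = 0.209). Krt19, a small type I keratin of simple epithelium and of the conjunctiva, read 12.33, 12.42, 12.38 and 12.27 against 12.18, 12.23 and 12.24, without overlap (-0.13, limma adjusted p = 0.389).

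The 3 basal keratins had ranges of 0.07 to 0.27 over the arrays, and by limma 0 of 3 passed, also at an unadjusted p under 0.05. Krt5 read 13.14, 13.16, 13.09 and 13.15 in wild type and 13.14, 13.15 and 13.15 in Mfrp rd6, a range of 0.07 over all 7 arrays. Its difference was 0.01 (95% confidence interval -0.13 to 0.15, limma adjusted p = 0.96). Signals close to the top of the scale, here and in the other bright genes, can be compressed, which was not tested. Krt14, the partner of Krt5, read 12.45, 12.53, 12.42 and 12.51 against 12.26, 12.45 and 12.30, with overlap through Mfrp rd6 replicate 2 (-0.14, limma adjusted p = 0.404). Krt15, a basal keratin without a fixed partner, read 12.86, 12.92, 12.87 and 12.90 against 12.83, 12.75 and 12.84. All 3 mutant values were below, by little (-0.08, limma adjusted p = 0.615).

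Among the keratins of the upper layers, the pair of moist epithelium lay above the upper quartile on every array and the corneal keratin below it. By limma 0 of these 5 passed, and 3 were lower at an unadjusted p under 0.05, against 9.37% of all genes. Krt4 read 12.73, 12.88, 12.70 and 12.75 in wild type and 12.72, 12.66 and 12.77 in Mfrp rd6, with the groups mixed (-0.05, limma adjusted p = 0.82). Its partner Krt13 read 12.55, 12.66, 12.53 and 12.51 against 12.42, 12.34 and 12.55, also with overlap (-0.13, limma adjusted p = 0.489, and -0.08 without Mfrp rd6 replicate 2). Krt6a, a keratin of stressed and fast-renewing epithelium, read 12.23, 12.21, 12.20 and 12.16 against 11.99, 12.00 and 12.06. Its groups were apart (-0.18, limma adjusted p = 0.198), but the near-identical Krt6b read 12.82, 12.78, 12.79 and 12.81 against 12.77, 12.78 and 12.90, and how far their probe sets share signal is uncertain. Krt16, a type I partner of Krt6a, read 7.32, 7.46, 7.47 and 6.91 against 6.61, 7.22 and 6.83, with wild-type replicate 4 inside the mutant range (-0.40, limma adjusted p = 0.283, and -0.27 without Mfrp rd6 replicate 1).

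Krt12 varied more than any other of the 36 genes. It read 8.63, 7.53, 7.57 and 8.23 in wild type and 6.92, 7.33 and 7.40 in Mfrp rd6. Wild-type replicates 1 and 4 stood above replicates 2 and 3 (SD 0.53, n = 4), and the mutant arrays lay below all of them. The difference of -0.77 (95% confidence interval -1.34 to -0.21, limma adjusted p = 0.181) did not pass the test. Leaving out 1 array at a time gave differences of -0.93 to -0.56, with 0 of 7 past the threshold. Aldh3a1, the aldehyde dehydrogenase abundant in mouse corneal epithelium, was bright on every array: it read 12.31, 12.54, 12.31 and 12.51 against 12.45, 12.32 and 12.52, with mixed groups (0.01, limma adjusted p = 0.97). Kera and Lum, which encode keratan sulfate proteoglycans of the corneal stroma, read 4.70 to 4.92 and 4.55 to 4.98 over the 7 arrays, below the lower quartile of all gene means. The 5 other genes of the stroma list, which many connective tissues express, all had negative differences: beside Dcn, Pdgfra (-0.40), Col1a1 (-0.23) and Col1a2 (-0.21) had every mutant array below every wild-type array without passing the threshold by limma, and Col3a1 (-0.09) overlapped.

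All 7 desmosome genes were bright and had a negative difference, 5 of them without overlap, and 1 fell. Among genes above the upper quartile, 66.0% had a negative difference, and 20.2% had every mutant array below every wild-type array (9.82% of all genes). Pkp3 read 9.27, 9.35, 9.31 and 9.26 in wild type and 8.89, 8.98 and 9.04 in Mfrp rd6, with a clear gap. It was 1.25-fold higher in wild type (-0.33, SE 0.07, limma adjusted p = 0.042). The call was lost in each of the 7 fits that left out 1 array (Pkp3 differences of -0.36 to -0.29, limma adjusted p of 0.0607 to 0.148) and after quantile normalization of the gene values (-0.28, adjusted p = 0.0679 by limma). Over all 17 alternatives, Pkp3 passed in 7.

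The other desmosome genes did not pass. Dsg3, the desmoglein of basal cells, read 11.60, 11.67, 11.58 and 11.64 in wild type and 11.36, 11.41 and 11.30 in Mfrp rd6, without overlap (-0.27, SE 0.07, limma adjusted p = 0.0792). Dsg3 passed in 4 of the 17 alternatives, among them a variance trend with robust moderation (limma adjusted p = 0.00981). Dsp, desmoplakin, which binds the keratin filaments, read 12.19, 12.16, 12.20 and 12.14 against 11.92, 11.99 and 11.93, also apart (-0.23, limma adjusted p = 0.118). Pkp1, the plakophilin of upper layers, read 11.31, 11.50, 11.33 and 11.54 against 11.13, 11.17 and 11.19 (-0.26, limma adjusted p = 0.155), and its wild-type arrays fell into a lower and a higher pair. The desmocollin Dsc3 read 10.95, 11.03, 10.87 and 11.07 against 10.82, 10.83 and 10.85, just apart (-0.15, limma adjusted p = 0.37). Jup, plakoglobin, which is shared with other junctions, read 12.41, 12.67, 12.52 and 12.52 against 12.42, 12.43 and 12.56, with mixed groups (-0.06, limma adjusted p = 0.797). Perp, a tetraspan membrane protein of desmosomes, read 12.07, 12.19, 12.02 and 12.19 against 12.02, 11.94 and 11.98, with the groups meeting at 12.02 (-0.14, limma adjusted p = 0.409).

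Among 6 genes of the cell envelope, of differentiation and of surface mucin, 0 passed the test, and 2 were lower at an unadjusted p under 0.05 (limma). That held for 9.37% of all genes and 16.9% of those above the upper quartile. The plakin Evpl, envoplakin, read 10.36, 10.35, 10.41 and 10.38 in wild type and 10.09, 10.09 and 10.23 in Mfrp rd6, and its partner Ppl, periplakin, 11.70, 11.60, 11.69 and 11.57 against 11.38, 11.32 and 11.53. Neither overlapped, with differences of -0.24 (limma adjusted p = 0.125) and -0.23 (limma adjusted p = 0.185). Ivl, involucrin, a substrate of the cornified envelope, read 7.49, 7.61, 7.37 and 7.23 against 7.21, 7.42 and 7.29, with overlap (-0.12, limma adjusted p = 0.642, and -0.18 to -0.06 when 1 array was left out). Muc4, a membrane mucin of the ocular surface, read 12.76, 12.66, 12.67 and 12.59 against 12.59, 12.54 and 12.56, with the groups meeting at 12.59 (-0.11, limma adjusted p = 0.513). Sfn, the 14-3-3 protein stratifin of epithelial cells, read 11.91, 11.98, 12.07 and 12.02 against 11.86, 11.98 and 11.98 by its brighter probe set, 10517067 (-0.055, limma adjusted p = 0.787). By its other probe set, 10572635, it differed by -0.075.

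The adhesion protein Epcam and the tight junction claudins Cldn4 and Cldn7 overlapped between the groups, and Cldn7 alone was lower at an unadjusted p under 0.05 (limma). Cldn7 read 10.49, 10.58, 10.59 and 10.41 in wild type and 10.33, 10.13 and 10.46 in Mfrp rd6 (-0.21, limma adjusted p = 0.306), and Mfrp rd6 replicate 3 lay within the wild-type range. Without Mfrp rd6 replicate 2 the Cldn7 difference was -0.12. Epcam read 9.18, 9.28, 9.01 and 9.19 against 9.06, 9.03 and 8.91 (-0.17, limma adjusted p = 0.381), and Cldn4 11.83, 11.78, 11.89 and 11.78 against 11.83, 11.71 and 11.73 (-0.06, limma adjusted p = 0.733).

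Of the 6 regulators, by limma 0 passed the test, and Grhl3 was lower at an unadjusted p under 0.05. Trp63, the p63 factor that basal cells of stratified epithelium need, read 10.46, 10.61, 10.52 and 10.41 in wild type and 10.47, 10.60 and 10.57 in Mfrp rd6. The groups were mixed, and the difference was 0.05 (95% confidence interval -0.12 to 0.21, limma adjusted p = 0.836). Klf5, a Krüppel-like factor of proliferating epithelium, read 11.69, 11.75, 11.60 and 11.72 against 11.75, 11.70 and 11.67, again mixed (0.02, limma adjusted p = 0.945). Grhl3, a grainyhead factor of barrier formation, read 10.97, 10.91, 10.92 and 10.85 against 10.71, 10.72 and 10.71, the only regulator of the 6 without overlap (-0.20, limma adjusted p = 0.17). The ETS factor Elf3 read 11.84, 11.99, 11.95 and 11.89 against 11.72, 11.65 and 11.95 (-0.14, limma adjusted p = 0.483), with Mfrp rd6 replicate 3 among the wild-type values. Its relative Ehf read 11.57, 11.70, 11.61 and 11.74 against 11.55, 11.36 and 11.57, the groups meeting at 11.57 (-0.16, limma adjusted p = 0.377). Esrp1, a regulator of epithelial splicing, read 11.13, 11.35, 11.09 and 11.24 against 11.12, 10.96 and 11.05 (-0.16, limma adjusted p = 0.409). Elf3, Ehf and Esrp1 were each lowest on Mfrp rd6 replicate 2, and without it the differences of Elf3 and Ehf were -0.08 and -0.095. Without replicate 3 that of Elf3 was -0.23.

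Neither aquaporin passed the test, though at an unadjusted p under 0.05 (limma) Aqp5 was lower. Aqp5, the water channel of corneal and glandular epithelium, read 10.54, 10.83, 10.75 and 10.81 in wild type and 10.33, 10.05 and 10.51 in Mfrp rd6. The groups came within 0.03 of each other without overlap, and the difference of -0.44 (95% confidence interval -0.70 to -0.18, limma adjusted p = 0.103) did not pass. Aqp3, which carries water and glycerol in basal cells, read 12.07, 12.28, 12.15 and 12.17 against 12.12, 11.86 and 12.13, with overlap (-0.13, limma adjusted p = 0.545). Mfrp rd6 replicate 2 was the lowest array for both channels, and without it the Aqp3 difference was -0.04.

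Related genes outside the 36 were read from lists that were also chosen with earlier results of these data known. In the list of the cornified envelope, the protein shell of outer epithelial cells, 0 of 12 measured genes rose and 1 fell. Of all genes, 1.34% rose and 0.813% fell. The 1 that fell was Tgm1, the transglutaminase that crosslinks this shell. Tgm1 read 10.57, 10.39, 10.47 and 10.43 in wild type and 9.85, 9.99 and 10.04 in Mfrp rd6, with a clear gap, and was 1.42-fold higher in wild type (-0.51, SE 0.08, limma adjusted p = 0.0105). It passed in all 7 fits that left out 1 array, but not without both Mfrp rd6 replicate 2 and wild-type replicate 3 (-0.52, limma adjusted p = 0.0869). The median of this list was -0.12.

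Among 8 further measured genes of desmosomes and of filaments joined to them, 0 rose and 1 fell, against 1.34% and 0.813% of all genes. Dsg1b, a desmoglein of upper layers, read 8.34, 8.89, 8.37 and 8.76 in wild type and 7.81, 7.92 and 8.02 in Mfrp rd6, without overlap. It was 1.59-fold higher in wild type (-0.67, SE 0.14, limma adjusted p = 0.0405). Mouse Dsg1 has near-identical copies, and Dsg1a was read only by a shared probe set, so the split among the copies is uncertain. The Dsg1b call was lost without wild-type replicate 2 (-0.57, limma adjusted p = 0.0661) or 4 (-0.62, limma adjusted p = 0.0984). It was also lost without Mfrp rd6 replicate 1 (-0.62, limma adjusted p = 0.14), 2 (-0.68, limma adjusted p = 0.119) or 3 (-0.73, limma adjusted p = 0.0789), and without both Mfrp rd6 replicate 2 and wild-type replicate 3 (-0.75, limma adjusted p = 0.116). The list's Des, the desmin filament of muscle, read 6.27 to 7.17 and 7.13 to 8.77, beside the higher skeletal muscle mean.

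In the lists of further keratins, of hemidesmosomes and of further regulators, 0 genes passed by limma, and 3, 2 and 3 were lower at an unadjusted p under 0.05. By limma, 9.37% of all genes and 16.9% of those above the upper quartile were lower at that p. The difference was negative in 56.5% of all genes and in 66.0% of those above the upper quartile. Of 15 further keratins, 8 had a negative and 7 a positive difference (median -0.02), and Krt78, at 7.0, 7.43, 7.33 and 7.25 against 6.60, 6.77 and 6.97, had the largest difference (-0.47, limma adjusted p = 0.0842). All 8 hemidesmosome genes, which anchor basal cells to the basement membrane, had a negative difference (median -0.10). Itga6, their integrin chain, was both the brightest and the most different, at 11.14, 11.24, 10.98 and 11.27 against 10.91, 10.83 and 10.77 (-0.32, limma adjusted p = 0.105). Of 17 further epithelial regulators, 11 had a negative difference (median -0.05). Among them the ETS factor Elf5 differed by -0.41 (limma adjusted p = 0.107), and the protease inhibitor Spint2 read 11.63 to 11.77 over all arrays.

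Most goblet cell and mucin genes overlapped between the groups, as did most of all genes. Of 13 measured, 10 had a positive difference, against 43.5% of all genes, and 3 a negative one (median 0.09), with 0 past the threshold by limma, also at an unadjusted p under 0.05. Muc5ac, the gel-forming mucin of conjunctival goblet cells, read 12.14, 12.49, 11.66 and 12.48 in wild type and 12.50, 12.29 and 12.33 in Mfrp rd6 (0.18, limma adjusted p = 0.712). Its lowest value was that of wild-type replicate 3, without which the Muc5ac difference was 0.0033, and the groups overlapped. Without wild-type replicate 3, 7 of the 13 were positive and 6 negative, with a median of 0.0033. Muc20, a membrane mucin named after its values were seen, was the only 1 of the 13 without overlap, lower in the mutant (-0.15, limma adjusted p = 0.365). Among all genes, every mutant array lay below every wild-type array in 9.82% and above in 5.52%. Muc16, also a membrane mucin, read 5.78 to 6.42 and 6.24 to 6.48 (0.25, limma adjusted p = 0.489, and 0.14 without wild-type replicate 1). Whether the mucin genes and the 36 genes differ in their response was not tested.

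**Figure D4:**
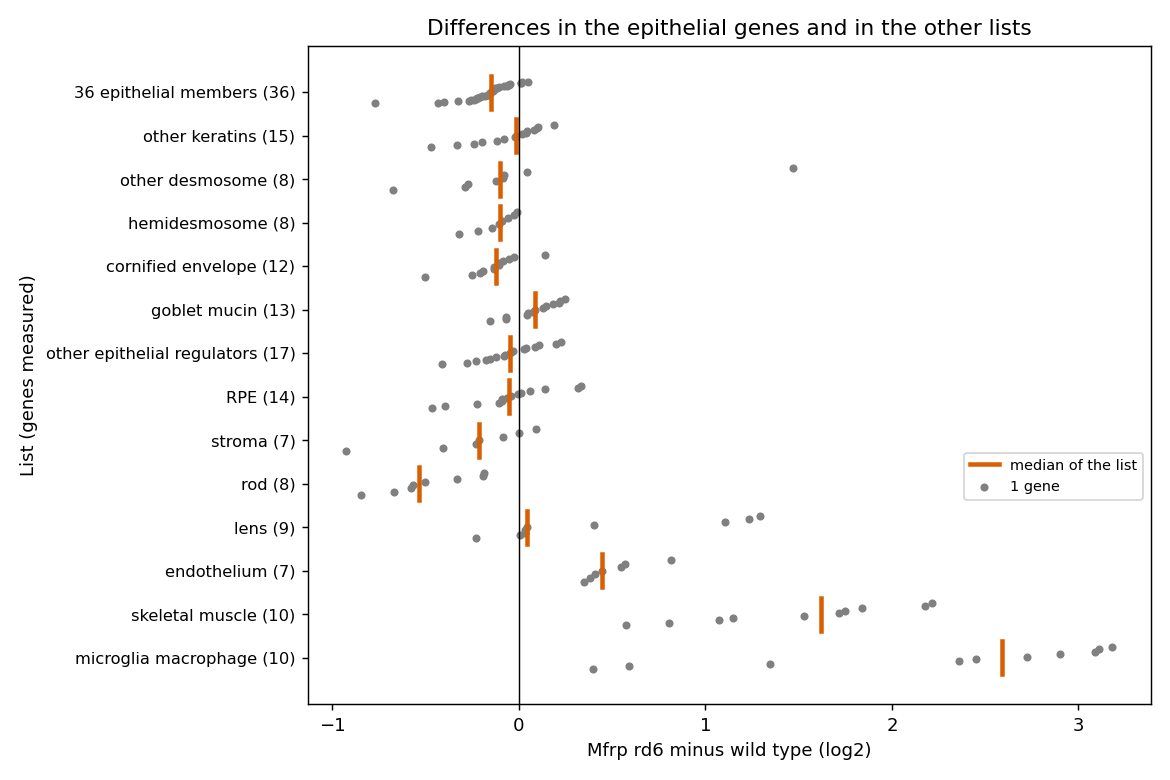
Difference between Mfrp rd6 and wild type (log2, horizontal axis) of each gene (points) and the median (bar) of the 36 epithelial genes, of the related lists and of the markers of other cells (vertical axis, with the number measured). The 36 genes have a median of -0.15 and the goblet cell and mucin genes 0.09, while the microglia and macrophage markers have a median of 2.59.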

How the data were processed

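RNA of 7 RPE samples was hybridised to Affymetrix whole-transcript arrays. The authors deposited log2 values, made with Affymetrix Expression Console and RMA per the submitters' processing notes, of versions not given in the sources used here. Differences of dim probe sets are compressed by RMA. The number of arrays limits the precision (median SE of a difference 0.088).

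Of 35556 probe sets, 21789 had 1 symbol in the platform annotation, 1621 several and 12146 none. The probe set with the highest mean was kept for each of 19938 genes. The mutant was compared with wild type in limma 3.58.1 under R 4.3.3, without filter or block, and Benjamini-Hochberg adjustment ran over all genes. On data simulated for these 19938 genes, 65% of 100 genes changed by 0.5 and 98% of 100 changed by 1 were recovered, with 10 false among 173 calls.

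The members, the lists and the rule for named genes were chosen with earlier results of these data known. All members are named. Of each related list, the genes past the threshold or, with none, the brightest and the most different were named. Des, Dcn, Pdgfra, the collagen genes, Kera, Lum, Muc20 and the RPE genes were named after their values were seen. Symbols were checked against RefSeq (GRCm38.p6), which also gave gene order and promoters. Alternatives were 2 other normalizations, 2 filters on dim genes, a variance trend, array weights, other uses of the probe sets, a block by replicate number and fits with 1 array removed. The fit with both Mfrp rd6 replicate 2 and wild-type replicate 3 removed, and the goblet list's median without wild-type replicate 3, were chosen after seeing the data.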

Additional observations from a re-analysis of the deposited data

How the results depend on the processing

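The negative median of the 36 genes kept its sign in all 17 alternatives, and 0 of the 36 rose in any. The number that fell was 1, and it was 0 after quantile normalization of the gene values, 2 when genes with a mean of at least 6 were tested, 4 with genes above the median level, 8 with a variance trend and robust moderation and 3 with array weights. It was 0 in each fit that left out 1 array, and 0 without both Mfrp rd6 replicate 2 and wild-type replicate 3. These fits differ in the genes tested, the scaling, the weights or the variance model, and the cause was not tested.  Over all genes, the 429 changed genes became 718 with the variance trend, 679 with array weights, 193 without those 2 arrays, and 211 to 325 when 1 array was left out.

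With the replicate number as a block, 226 genes changed and 0 of the 36 fell. In that fit Pkp3 (-0.34, limma adjusted p = 0.208), Dsg1b (-0.62, limma adjusted p = 0.0773) and Tgm1 (-0.52, limma adjusted p = 0.0737) did not pass. Wild-type replicate 4 has no mutant array of its number, so these differences equal those of the fit without it. The block also leaves less to estimate the spread from, so a lost call there says nothing on pairing. Deviations of arrays with the same number correlated at -0.303, -0.0729 and 0.0364. The highest correlations of the same mutant arrays with a wild-type array of another number were 0.369, 0.154 and 0.26. So few arrays cannot settle whether the numbers pair the samples. Small differences changed sign: Krt5 was -0.0276 after quantile normalization, -0.005 without both Mfrp rd6 replicate 2 and wild-type replicate 3, and -0.0033 to 0.02 when 1 array was left out. Aldh3a1 was -0.0448 with array weights and -0.0325 to 0.0675 when 1 array was left out. Klf5 was -0.01 without those 2 arrays and -0.0133 to 0.0367 when 1 array was left out, and Krt6b was -0.025 to 0.04 in those fits.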
